A study of Mus musculus with 6 samples.

Results

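The zinc finger genes with Zfp symbols were examined in synaptoneurosomes, a brain fraction enriched in synapses, with their presynaptic and postsynaptic parts. They were chosen by symbol (Zfp followed by a digit) and by their level, with at least 60 counts summed over the 6 libraries, which left 276 of 363 Zfp genes among the 21958 protein-coding genes of the deposited table. Of these 276 members, 275 passed the expression filter and were tested, and Zfp712, with 1.22, 1.66 and 1.24 CPM (counts divided by the TMM-scaled library total) on polyribosomes and 5.96, 3.68 and 1.92 CPM in total RNA, was not. The other 87 Zfp genes had fewer than 60 counts and were set aside. The summed counts that selected the members ranged from 60 to 18610, with a median of 218. Just inside the limit were Zfp354a (60 counts), Zfp459 (60) and Zfp59 (62), and just outside it Zfp57, Zfp691 and Zfp930 (58 each).

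RNA came from hippocampi with neighbouring cortex of FVB mice aged 6 to 8 weeks, in 2 groups of 3 libraries. The first group was polyribosomal RNA, from light and heavy gradient fractions pooled, of synaptoneurosomes that received a pulse of 50 µM NMDA and 10 µM glutamate for 30 sec and then 120 µM APV, an NMDA receptor blocker, for 20 min. The second group was total RNA of synaptoneurosomes labelled unstimulated. No engineered allele is named for these mice, each preparation pooled tissue of several mice and was divided into aliquots, and libraries with the same replicate number shared a prefix in the deposited table and are called 1 preparation here. The labels give the same treatment text for both groups, and the group names alone mark the second as unstimulated. Stimulation and fraction changed together, so their parts in a difference cannot be told apart. Fewer synapses of a kind and less RNA per synapse cannot be told apart either. The authors describe unstimulated controls as held on ice with cycloheximide, a protein synthesis inhibitor, and stimulated aliquots as incubated warm. Temperature and inhibitor may thus differ between the groups too, and their parts cannot be told apart from the others. Counts on the genes of the table summed to between 5294482 and 7361580 per polyribosome library and to between 1044955 and 3738022 per total RNA library.

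Zfp genes encode proteins that mostly bind DNA through fingers, short loops in which a pair of cysteines and a pair of histidines hold a zinc ion. Many carry a KRAB box at their start, which recruits the corepressor Trim28 and silences retroelements, and they lie in clusters of tandem copies. A minority binds RNA or ribosomes instead. In the brain they act chiefly in nuclei, and synapses hold the mRNA that was exported and transported, beside what the preparation carries over. In the proteins translated from Gencode vM21 transcripts, 269 of 276 members held at least 1 finger (2 cysteines 2 to 4 residues apart, 12 residues, and 2 histidines 3 to 5 residues apart), with a median of 10 and at most 36. A KRAB box pattern was found in 118 members. Members without a match to these patterns may still hold such a domain.

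The coding sequence of the fingers differed in base composition between the ends of the family, so 1 finger is shown for each of 5 members called lower on polyribosomes and for the 5 farthest above the family median among those with at least 30 counts per library on average. Each is the finger in the middle of the order of GC content among those coded within 1 exon of the member. They are written 5′ to 3′ on the coding strand of GRCm38 (a C57BL/6 reference, whereas the mice were FVB), and the capitals mark the codons of the cysteines and histidines that hold zinc.
Zfp280c (chrX:48554029-48554091, minus strand, 38.1% GC): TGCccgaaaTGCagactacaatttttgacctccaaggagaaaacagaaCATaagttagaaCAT
Zfp322a (chr13:23356842-23356904, minus strand, 39.7% GC): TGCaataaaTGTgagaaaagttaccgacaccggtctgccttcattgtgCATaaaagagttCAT
Zfp788 (chr7:41650507-41650569, plus strand, 36.5% GC): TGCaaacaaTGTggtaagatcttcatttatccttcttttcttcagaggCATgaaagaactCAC
Zfp160 (chr17:21026387-21026449, plus strand, 41.3% GC): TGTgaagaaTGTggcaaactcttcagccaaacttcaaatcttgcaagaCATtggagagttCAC
Zfp458 (chr13:67257561-67257623, minus strand, 36.5% GC): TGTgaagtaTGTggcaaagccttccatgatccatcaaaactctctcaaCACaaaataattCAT
Zfp771 (chr7:127254024-127254086, plus strand, 71.4% GC): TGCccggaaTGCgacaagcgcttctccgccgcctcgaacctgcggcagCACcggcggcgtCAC
Zfp513 (chr5:31199717-31199779, minus strand, 60.3% GC): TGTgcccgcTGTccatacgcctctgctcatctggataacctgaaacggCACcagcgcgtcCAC
Zfp628 (chr7:4920626-4920688, plus strand, 60.3% GC): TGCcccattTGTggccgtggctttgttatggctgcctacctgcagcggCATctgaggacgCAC
Zfp444 (chr7:6189750-6189812, plus strand, 63.5% GC): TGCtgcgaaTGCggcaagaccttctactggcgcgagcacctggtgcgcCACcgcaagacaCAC
Zfp428 (chr7:24515450-24515512, plus strand, 55.6% GC): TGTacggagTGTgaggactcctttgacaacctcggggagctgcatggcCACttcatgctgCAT

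The first 5 sequences held 36.5% to 41.3% GC and the last 5 held 55.6% to 71.4%. The finger of Zfp428 is the only one the pattern found in that member. Over all fingers within an exon, GC content ran from 30.2% to 49.2% in Zfp788 and from 65.1% to 74.6% in Zfp771. Single fingers of other members overlapped between the ends, with 34.8% to 56.1% in the 4 of Zfp280c and 47.6% to 68.3% in Zfp513. The KRAB boxes of Zfp160 and Zfp788 were less poor in GC than the fingers shown, and their coding stretches are given because members with a KRAB box lay lower than the others.
Zfp160 (chr17:21020090-21020173, plus strand, 48.8% GC): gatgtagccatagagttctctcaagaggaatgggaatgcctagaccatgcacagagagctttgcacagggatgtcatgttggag
Zfp788 (chr7:41647509-41647592, plus strand, 47.6% GC): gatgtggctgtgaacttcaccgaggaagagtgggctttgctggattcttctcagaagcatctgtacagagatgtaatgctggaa

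As a group, the Zfp mRNAs were less abundant on polyribosomes than in total RNA. They took 0.556%, 0.522% and 0.474% of all counts in polyribosome libraries 1 to 3 and 0.690%, 0.668% and 0.759% in total RNA libraries 1 to 3, so the groups did not overlap. The median log2 fold change of the 275 members tested (polyribosomes over total RNA, edgeR) was -0.46, against 0.00 over all 12255 genes tested, and 210 members (76.4%) lay below 0 against 49.9% of all genes. Within preparations 1 to 3 the medians of the members were -0.40, -0.32 and -0.57 (SD 0.13). The direction of the family was known when it was chosen, so these medians are a description and were not tested. Scaling by library totals alone gave a median of -0.57 for the members and moved the median of all genes to -0.11.

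Of the 275 members, 17 (6.18%) were called lower on polyribosomes, against 2.36% of all genes tested. A call is an adjusted p below 0.01 in the quasi-likelihood test of edgeR, with Benjamini-Hochberg adjustment over all genes tested. None was called higher, against 0.71% of all genes. At an unadjusted p under 0.05 (edgeR), 8 of the 275 members were higher and 108 lower, against 1888 and 2092 of 12255 genes. DESeq2 called 18 lower and 0 higher of the 169 members to which it gave an adjusted p (3.77% and 3.19% of all genes). With the preparation as a replicate block, 83 members (30.2%) were lower and 3 (1.09%) were higher, against 13.2% and 11.8% of all genes. Leaving out 1 library lowered the count of lower calls in the fit without the block, among members and among all genes. It was 4, 3 and 7 members (1.45%, 1.09% and 2.55%) without polyribosome replicates 1, 2 and 3, against 1.23%, 0.374% and 1.7% of all genes. It was 2, 0 and 9 members (0.725%, 0% and 3.26%) without total RNA replicates 1, 2 and 3, against 0.503%, 0.173% and 1.56% of all genes. Of the 17 members, 9 passed in none of these fits. The polyribosome values lay wholly below the total RNA values in 125 members (45.5%), against 18.9% of all genes, and wholly above them in 7 (2.55%), against 17.4%.

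**Figure D1:**
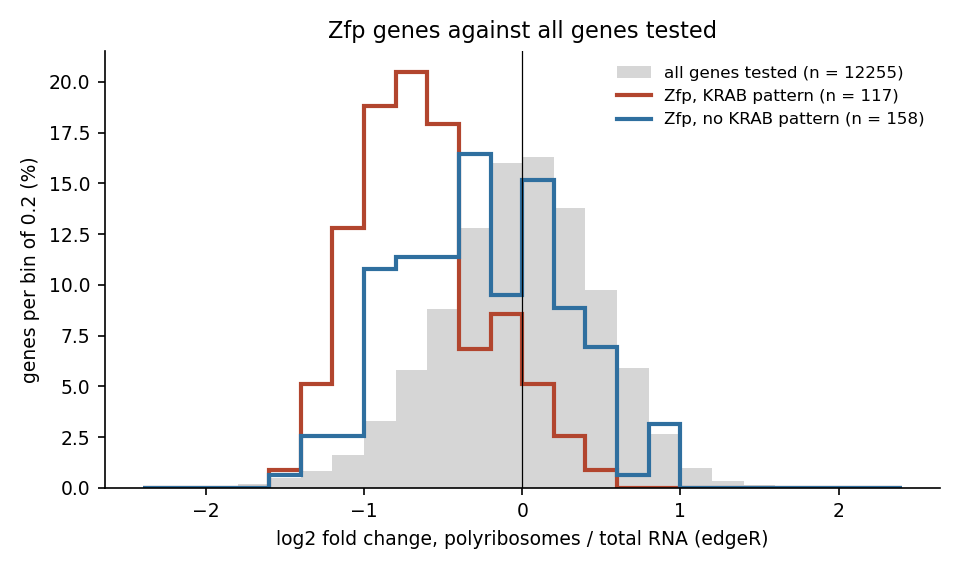
Percent of genes (y axis) per bin of 0.2 in log2 fold change, polyribosomes over total RNA (x axis), for all 12255 genes tested (grey), the 117 tested Zfp members with a KRAB pattern (red) and the 158 without one (blue). The red outline peaks left of the grey area, with a median of -0.70, and the blue outline lies between them, with a median of -0.25.

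The 17 members called lower held 8 with a KRAB pattern and 9 without, and in each of them the groups did not overlap. Zfp644, a partner of the histone methyltransferases that place a silencing mark, was the most abundant of them, with 72.4, 66.9 and 44.3 CPM in polyribosome libraries 1 to 3 and 139, 152 and 157 CPM in total RNA libraries 1 to 3. The total RNA libraries were thus about alike and all well above the polyribosome libraries. Polyribosomes held 2.42-fold less, a log2 fold change of -1.28 (SE 0.19, adjusted p = 0.00186, edgeR), and it passed in 5 of the 6 fits that left out a library. Its gene lies on chromosome 5 of GRCm38 from 106616739 to 106697287 and overlaps 3 other annotated genes, 2 of them on its strand. Whether reads in such overlaps were assigned by strand is not given in the sources used here.

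Zfp280c and Zfp280d, relatives of a fly insulator protein, were both lower on polyribosomes. Zfp280c, on chromosome X from 48541625 to 48594504, had 6.63, 4.67 and 5.76 CPM in polyribosome libraries 1 to 3 and 16.9, 17.7 and 11.5 CPM in total RNA libraries 1 to 3, so its lowest total RNA value was the shallowest library. No tested member had a lower log2 fold change than its -1.5 (SE 0.24, adjusted p = 0.00249, edgeR). Zfp280d, on chromosome 9 from 72274860 to 72363777, had 19.3, 19.9 and 15.6 CPM on polyribosomes and 40.7, 45.2 and 46.0 CPM in total RNA. The 3 total RNA values lay close together, and the fold change was -1.25 on the log2 scale (SE 0.18, adjusted p = 0.00156, edgeR). Zfp280d overlaps 6 other annotated genes, and Zfp280c none.

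Zfp322a, a factor of pluripotent stem cells on chromosome 13 from 23353103 to 23369208, had 7.71, 9.94 and 6.18 CPM on polyribosomes and 19.4, 21.1 and 24.0 CPM in total RNA. The difference was -1.38 on the log2 scale (SE 0.22, adjusted p = 0.00253, edgeR). Zfp322a, Zfp280c, Zfp280d and Zfp644 lack a KRAB pattern. Among KRAB members, Zfp788 on chromosome 7 from 41633203 to 41651534, with 23 fingers, had 7.17, 9.19 and 5.97 CPM on polyribosomes and 19.1, 15.7 and 23.0 CPM in total RNA, a difference of -1.31 on the log2 scale (SE 0.23, adjusted p = 0.00386, edgeR). Zfp160 had 4.87, 3.46 and 4.32 CPM against 13.9, 7.70 and 15.3 CPM, and the total RNA libraries differed among themselves by more than the polyribosome libraries did. Its log2 fold change of -1.48 and the -1.37 of Zfp458, a regulator of sex-limited genes in the liver, passed in the fit with all libraries and in none that left out 1 library.

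Zfp40, Zfp949, Zfp68, Zfp60, Zfp451, Zfp386, Zfp397, Zfp207, Zfp871 and Zfp292 made up the rest, with log2 fold changes from -1.27 (Zfp40) to -0.82 (Zfp292). Zfp451 is a SUMO ligase and had 40.8 ± 7.93 CPM on polyribosomes against 78.6 ± 13.4 in total RNA (SD, n = 3 each). Zfp207, which binds spindle checkpoint proteins, had a small spread, 36.5 ± 0.930 against 64.2 ± 4.20 CPM (SD, n = 3 each). In any of these 17 members at most 5.38% of the 50-base stretches (in Zfp458) occurred in a transcript of another gene, whereas 17 of all 276 members shared over 20%. The part of reads from near-identical copies in these values was not tested.

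Members with a KRAB pattern lay lower than the others. Of 117 tested, 107 (91.5%) were below 0, with a median log2 fold change of -0.70, and of 158 members without the pattern 103 (65.2%) were below 0, with a median of -0.25. The difference between the medians was -0.39, -0.39 and -0.34 in preparations 1 to 3 (SD 0.031). With the replicate block 42 KRAB members (35.9%) were lower and 0 higher, and 41 members without the pattern (25.9%) were lower and 3 higher. Of all genes 13.2% were lower and 11.8% higher in that fit. The 3 were Zfp428, Zfp513 and Zfp771. Of the 117 KRAB members, 10 lay above 0, of which Zfp688 was the farthest, at 0.44, and none of the 10 was called.

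The number of fingers went with the log2 fold change as well. Over all members tested the median was -0.19 with 0 to 3 fingers (n = 40) and -0.37 with 4 to 8 (n = 63). It was -0.54 with 9 to 12 fingers (n = 89) and -0.61 with 13 or more (n = 83). Among KRAB members the median was -0.54 in those with 4 to 8 fingers (n = 13), -0.70 with 9 to 12 (n = 49) and -0.77 with 13 or more (n = 52), and among the others it was -0.16 with 0 to 3 fingers (n = 37), -0.28 with 4 to 8 (n = 50), -0.32 with 9 to 12 (n = 40) and -0.35 with 13 or more (n = 31). Both sequences went down with finger number. With the block and an offset for GC content and length of the transcript, neither went down throughout. In the same order of classes the medians were then -0.29, -0.40 and -0.34 for KRAB members and -0.06, -0.17, -0.27 and -0.24 for the others. The 21 tested KRAB zinc finger genes with other symbols had a median of -0.66, and 20 of them were below 0. Zbtb genes, zinc finger factors with a BTB domain, had a median of -0.27 (n = 35), Zkscan and Zscan genes -0.31 (n = 19), Klf and Sp genes -0.10 (n = 19) and Zc3h genes, whose fingers bind RNA, -0.49 (n = 13).

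GC content of the transcript went with the log2 fold change. Across the 275 members Spearman's rho was 0.71 and Pearson's r 0.72, and across 12238 genes of the table rho was 0.53. Points share the same 6 libraries and genes are not independent replicates, so this is a description. Within preparations 1 to 3 rho was 0.58, 0.68 and 0.50 across the members. KRAB members had a median GC content of 42.5% and the others 49.9%, against 50.6% over all genes tested. Within KRAB members rho was 0.40 and within the others 0.73.

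Members lay below the median of all genes of like GC content. From 40% to 45% GC the median log2 fold change was -0.72 over 74 members and -0.33 over 2109 genes, and 70 of the 74 were below 0. Below 40% GC the medians were -0.82 (n = 45) and -0.49 (n = 486), from 45% to 50% they were -0.43 (n = 62) and -0.15 (n = 3114), from 50% to 55% -0.14 (n = 46) and 0.07 (n = 3258), and from 55% up 0.16 (n = 48) and 0.32 (n = 3271). Members were thus lower in all 5 classes, and the classes of all genes contain the members. From 40% to 45% GC KRAB members had a median of -0.79 and the others -0.63, and below 40% the order was the reverse, with -0.74 and -0.92.

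**Figure D2:**
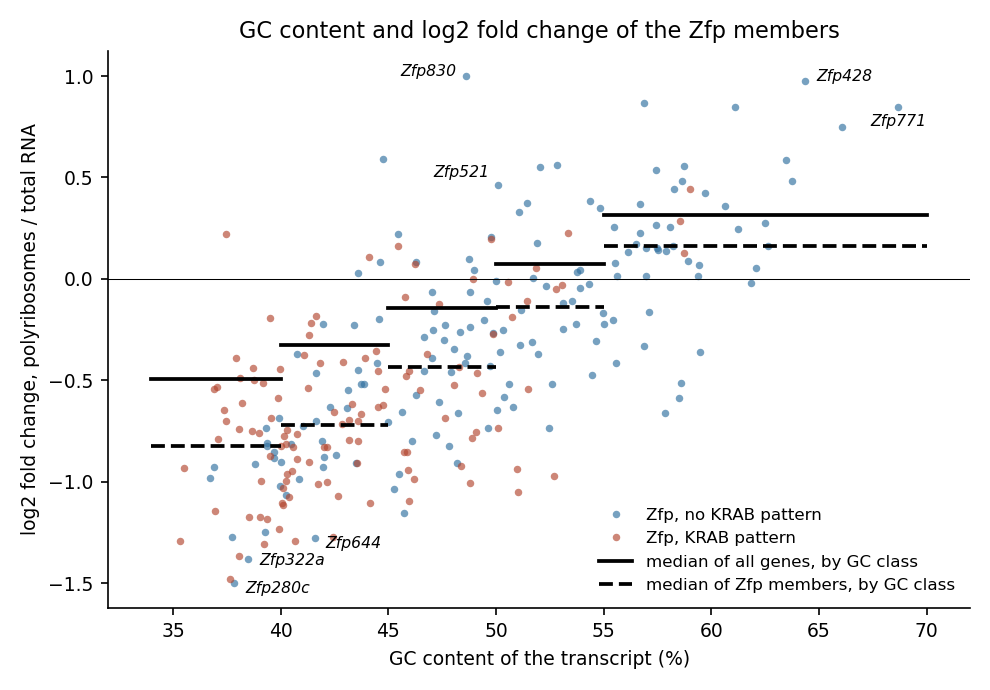
Log2 fold change, polyribosomes over total RNA (y axis), against GC content of the transcript in percent (x axis) for the 275 tested Zfp members, with a KRAB pattern (red) or without (blue). Solid lines give the median of all genes and dashed lines the median of the members in 5 classes of GC content, from -0.49 and -0.82 below 40% to 0.32 and 0.16 from 55% up.

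When the fit with the block also held an offset for GC content and length of the transcript, the median of the members moved to -0.26 and that of KRAB members to -0.34, against -0.20 for the others. In that fit 26 members (9.45%) were lower and 2 (0.727%) were higher, against 7.22% and 8.79% of all genes. Of the 17 members called lower without the offset, 12 passed in it, Zfp644 (-0.84, adjusted p = 6.44e-09, edgeR) and Zfp207 (-0.83, adjusted p = 6.45e-08) with the smallest adjusted p. Zfp207 hardly moved, from -0.82 with the block alone, and Zfp871 moved from -0.82 to -0.26. The 2 higher members were Zfp652 (0.46, adjusted p = 0.00124, edgeR), at 150 ± 4.14 CPM (polyribosomes) and 143 ± 31.2 CPM (total RNA) (SD, n = 3 each), and Zfp521 (0.59, adjusted p = 0.00583).

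The members that departed from the family were sought with the same test, with the family median of -0.46 in place of 0 as the null. The median was taken as fixed. At an adjusted p under 0.01, 5 of 275 members (1.82%) lay below the family median, against 0.84% of all genes, and 14 (5.09%) lay above it, against 23.4% of all genes. Those below were Zfp280c, Zfp322a, Zfp788, Zfp644 and Zfp280d, all described above, with GC contents from 37.8% to 41.6%. Those above were Zfp830, Zfp428, Zfp593, Zfp513, Zfp771, Zfp580, Zfp628, Zfp444, Zfp64, Zfp521, Zfp574, Zfp13, Zfp651 and Zfp523, with GC contents from 48.6% to 68.7%. None of the 14 had a KRAB pattern, and all of them had a log2 fold change above 0 without passing the test against 0.

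Zfp771 and Zfp513 departed most often, in 5 of the 6 fits that left out a library, as did Zfp521. Zfp771, on chromosome 7 from 127244526 to 127254803, had the highest GC content of the family and 18.8, 25.3 and 29.0 CPM on polyribosomes and 9.44, 15.7 and 18.2 CPM in total RNA. The groups did not overlap, and each preparation was higher on polyribosomes. Its departure from the family median was 1.30 (adjusted p = 0.00153, edgeR) and its log2 fold change was 0.85 (SE 0.25, adjusted p = 0.0381).

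Zfp513, linked to inherited loss of photoreceptors, had 10.1, 7.83 and 11.1 CPM on polyribosomes and 3.97, 6.03 and 7.67 CPM in total RNA, with a departure of 1.31 (adjusted p = 0.00286, edgeR). The lowest polyribosome value was just above the highest total RNA value. Zfp521, a regulator of neural progenitors, had 20.3, 22.9 and 21.4 CPM on polyribosomes and 15.9, 15.4 and 15.3 CPM in total RNA, with a departure of 0.92 (adjusted p = 0.00185, edgeR). It had the least spread between total RNA libraries of the 14, and its log2 fold change stayed between 0.42 and 0.50 with each library left out. Zfp521 overlaps another annotated gene on its strand.

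Zfp428 had 9.33, 13.7 and 18.5 CPM on polyribosomes and 5.46, 6.70 and 11.5 CPM in total RNA. The groups overlapped, while each preparation was higher on polyribosomes, and the departure was 1.43 (adjusted p = 0.00286, edgeR). Zfp830, which works in splicing and genome stability, had the largest departure, 1.46 (adjusted p = 0.0049, edgeR), at a low level of 4.33, 5.12 and 4.12 CPM on polyribosomes and 1.74, 2.68 and 2.88 CPM in total RNA. Its total RNA values rest on 7, 8 and 3 counts. Zfp593, whose yeast relative acts in the export of ribosome precursors, rests on 14, 7 and 4 counts there and Zfp580 on 13, 9 and 2 counts, and neither departed in more than 1 of the fits that left out a library.

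Zfp628, a factor of male germ cells, had 9.33, 10.2 and 12.6 CPM on polyribosomes and 4.72, 8.37 and 10.5 CPM in total RNA, and Zfp444 had 16.2, 20.8 and 26.1 CPM against 11.7, 16.1 and 16.3 CPM. Their groups overlapped, with departures of 1.04 and 1.01 (adjusted p = 0.00944 and 0.00384, edgeR). Zfp651 and Zfp523 were the most abundant of the 14 above the median, with 164 ± 7.15 and 94.6 ± 1.23 CPM on polyribosomes and 139 ± 27.8 and 81.0 ± 12.2 CPM in total RNA (SD, n = 3 each). In both, total RNA replicate 3 equalled the polyribosome libraries and the other total RNA libraries were lower. Zfp428, Zfp513, Zfp580 and Zfp593 each overlap another protein-coding gene of the annotation.

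**Figure D3:**
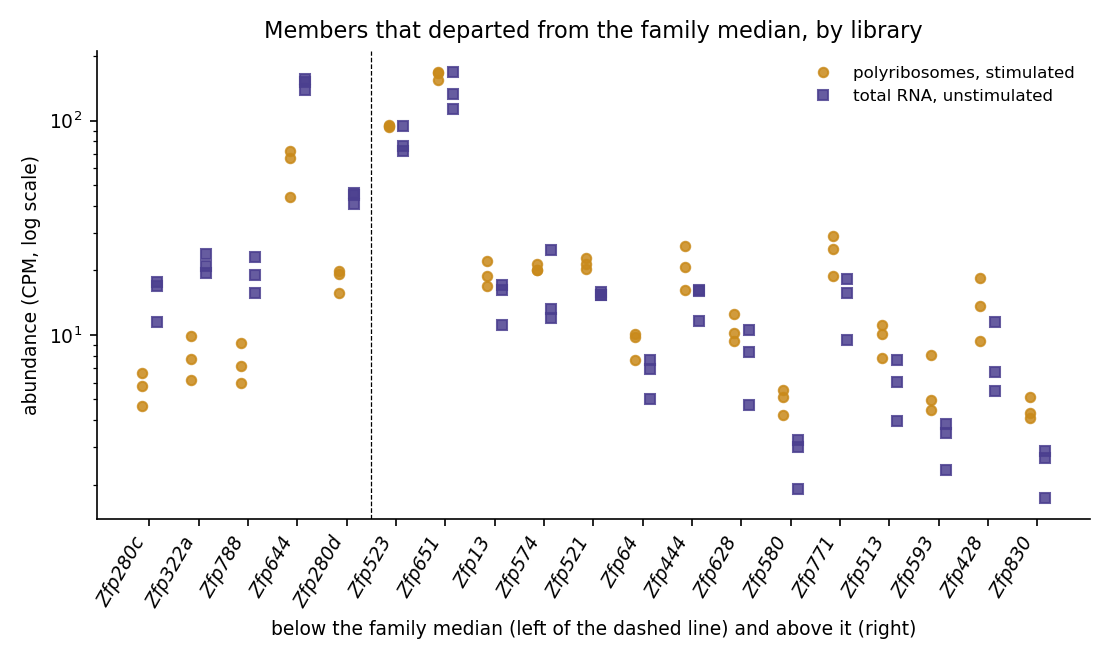
Abundance in CPM on a log axis (y axis) of the 19 members that departed from the family median (x axis), with 1 point per library for the 3 polyribosome libraries (circles) and the 3 total RNA libraries (squares). In the 5 members left of the dashed line all circles lie below all squares, and to the right of it circles tend to lie higher, without overlap in 6 of 14 members.

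With the replicate block, 15 members (5.45%) lay below the family median and 35 (12.7%) above it, against 2.92% and 42.9% of all genes, and the 19 members of the fit without the block were all among them. With the block and the GC and length offset, 7 members (2.55%) lay below and 11 (4%) above, against 2.51% and 27.5% of all genes. Of the 5 below, 4 remained in that fit (Zfp788 did not, adjusted p = 0.0117, edgeR). Of the 14 above, Zfp651, Zfp521, Zfp444 and Zfp830 remained, and Zfp771 (adjusted p = 0.269, edgeR) and Zfp428 (adjusted p = 0.12) did not. The count of departing members was 16, 5 and 13 without polyribosome replicates 1, 2 and 3 and 0, 7 and 20 without total RNA replicates 1, 2 and 3 (edgeR). Of these, 14, 4 and 9 and then 0, 6 and 16 lay above the median, against 23.5%, 14.8% and 20.4% and then 4.88%, 12.2% and 19.7% of all genes. The share of all genes below the median was between 0.22% and 0.872% in these 6 fits.

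**Figure D4:**
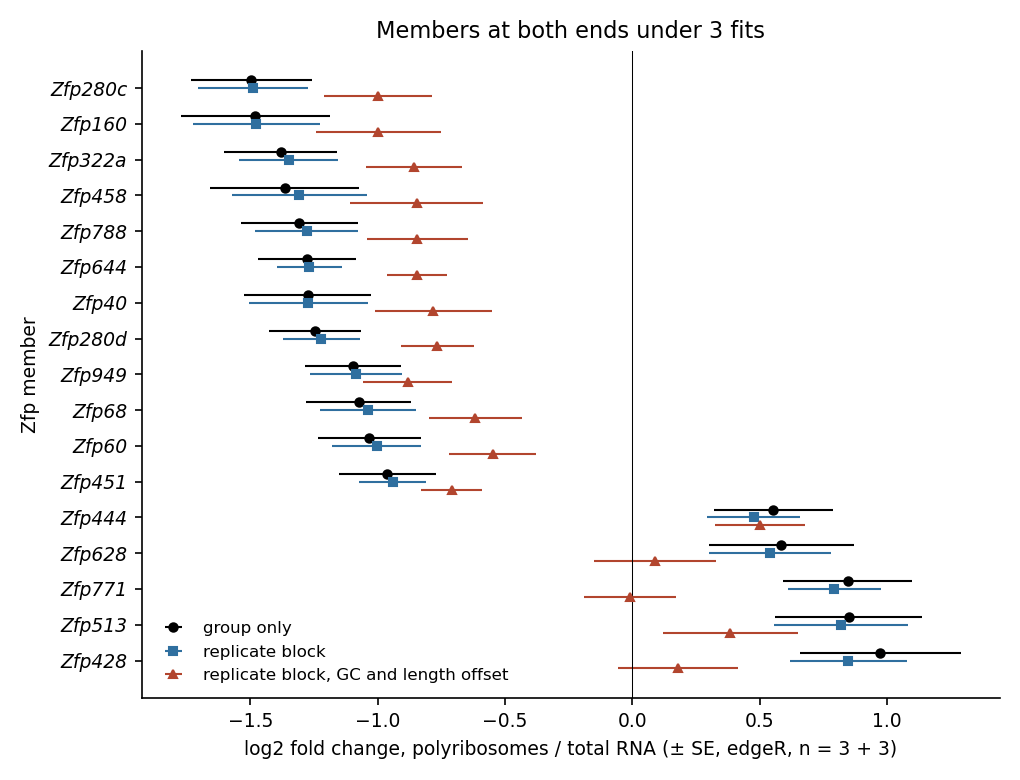
Log2 fold change, polyribosomes over total RNA, with its standard error (x axis, edgeR, 3 libraries per group) for 12 members called lower and the 5 farthest above the family median with at least 30 counts per library on average (y axis), in the fit by group only (circles), with the replicate block (squares) and with the block and the GC and length offset (triangles). The offset moves Zfp280c from -1.49 to -1.0 and Zfp771 from 0.79 to -0.01, whereas Zfp444 is at 0.48 and 0.50.

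Some Zfp members lie close together in the genome, and these clusters differed. Neighbouring members with starts at most 500 kb apart were joined, and 11 clusters of at least 5 members held 98 of the 276. In the cluster on chromosome 13 from 67038594 to 67729119, from Zfp712 to Zfp65, all 12 members had a KRAB pattern and all 11 tested were below 0, with a median log2 fold change of -0.76 and GC contents from 37.3% to 44.8%. A cluster on chromosome 9 from 20345136 to 20595194 was alike, with all 5 members below 0, all with a KRAB pattern, and a median of -0.75. Of the 12 members on chromosome 17 from 21567046 to 23599487, 11 were below 0 (median -0.77), and the exception was Zfp13, at the edge of the cluster, without a KRAB pattern and with 59.7% GC. The second cluster of chromosome 17, from 32771236 to 33631779, had 11 of 12 members below 0 (median -0.69), and here the exception was Zfp414, at its edge, at 0.55 and 58.7% GC.

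Chromosome 7 held 71 members and both kinds of cluster. In the one from 4915217 to 5053722 none of the 5 members, Zfp628, Zfp579, Zfp865, Zfp784 and Zfp580, had a KRAB pattern, all lay above 0 (median 0.56), and their GC content ran from 52.8% to 66.1%. In the one from 127233061 to 127885996, which holds Zfp771, 6 of 9 lay above 0 (median 0.23). In the one from 29768552 to 30169727, 12 of 13 were below 0 (median -0.47), with GC contents from 41.7% to 50.7%. With the block and the GC and length offset the medians of these 3 clusters were -0.03, -0.09 and -0.26, and that of the chromosome 13 cluster was -0.35. Cluster members share neighbours and may share sequence, so these medians were not tested. The clusters rest on distance alone, and whether their members are tandem copies was not tested.

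**Figure D5:**
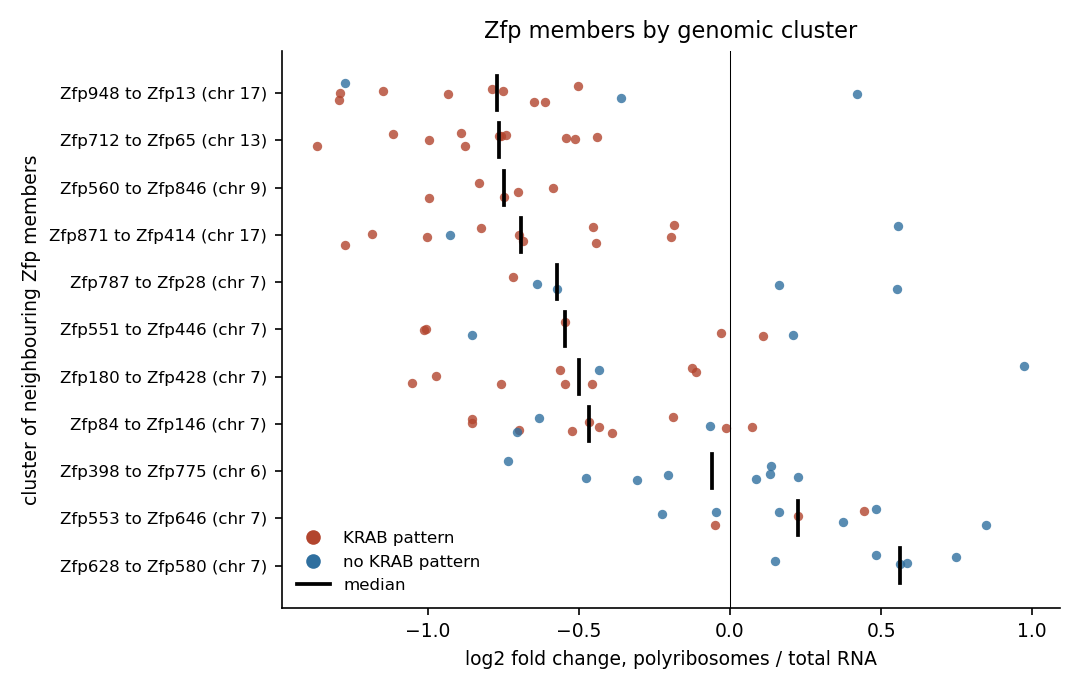
Log2 fold change, polyribosomes over total RNA (x axis), of the tested members (1 point each, with vertical jitter) in the 11 genomic clusters (y axis, named by first and last member), with a KRAB pattern (red) or without (blue), and the median of each cluster (black bar). The medians run from -0.77 in the first row to 0.56 in the last.

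The members known to act on RNA or ribosomes lay on both sides of 0. Of 11 tested, 6 were below 0, and the median log2 fold change was -0.16. In the fit by group only, 1 was called lower (Zfp207, 9.09%, against 2.36% of all genes) and none higher (edgeR). At an unadjusted p under 0.05 (edgeR), 3 were lower and 1 was higher. With the block 3 were lower (27.3%, against 13.2% of all genes) and 0 higher. These were Zfp207, Zfp326 and Zfp638. Zfp36l1, which binds AU-rich mRNAs and hastens their decay, had 19.9, 19.7 and 25.1 CPM on polyribosomes and 19.1, 18.8 and 27.8 CPM in total RNA, which overlap, and a difference of 0.05 on the log2 scale (SE 0.21). Its relative Zfp36l2 had 20.2 ± 4.39 and 16.1 ± 6.38 CPM (SD, n = 3 each), a difference of 0.35 on the log2 scale (SE 0.28). Zfp598, the ubiquitin ligase of collided ribosomes, had 16.7 ± 2.03 and 17.9 ± 8.01 CPM, and Zfp622, a maturation factor of the large ribosomal subunit, had 14.0 ± 2.72 and 16.1 ± 2.68 CPM, so neither differed beyond its spread. Zfp326, part of a complex that links transcription to splicing, was lower with the block (-0.92, adjusted p = 4.3e-05, edgeR) and not without it (-0.91, adjusted p = 0.011).

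Of 10 tested members studied in the nervous system, 7 were below 0, with a median of -0.34. Zfp292 was called lower (10%, against 2.36% of all genes). With the block 4 were lower (40%, against 13.2% of all genes) and 0 higher. These were Zfp292, Zfp407, Zfp711 and Zfp804a. Zfp804a, a gene associated with schizophrenia, had 5.95, 6.18 and 3.50 CPM on polyribosomes and 11.9, 12.1 and 11.5 CPM in total RNA. The groups did not overlap, and its difference of -1.16 on the log2 scale (SE 0.26, adjusted p = 0.0123, edgeR) missed the threshold and passed it with the block (-1.09, adjusted p = 9.61e-05). Zfp711, a gene of X-linked intellectual disability, had 2.88 ± 0.218 and 6.28 ± 1.21 CPM (SD, n = 3 each), with an adjusted p of 0.0359, and 0.00867 with the block. Zfp423, a factor of cerebellar precursors, had 52.9 ± 8.34 and 43.2 ± 16.2 CPM.

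Of members known for imprinting or the silencing of retroelements, Zfp445, Zfp568, Zfp809 and Zfp932 were tested, and all 4 were below 0, with none called. Zfp445, which keeps imprints, had 31.8, 29.7 and 29.0 CPM on polyribosomes and 53.6, 36.2 and 49.9 CPM in total RNA. The groups did not overlap (-0.62, adjusted p = 0.0394, edgeR), and it passed with the block (adjusted p = 0.00047). Zfp932 shares 55.5% of its 50-base stretches with other genes, so its reads are uncertain. Of 7 general or promoter-bound transcription factors 5 were below 0 (median -0.11) and none was called. With the block Zfp148 and Zfp281 were lower (28.6% of the list, against 13.2% of all genes).

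The highest level per transcript length was that of Zfp365, which binds the scaffold protein Disc1 and is abundant in brain, with 150 CPM per kb on polyribosomes and 185 in total RNA. It had 701, 694 and 527 CPM on polyribosomes and 708, 864 and 796 CPM in total RNA. The groups overlapped, with a difference of -0.30 on the log2 scale (SE 0.18, adjusted p = 0.263, edgeR). Zfp106, an RNA-binding protein needed by motor neurons, came next, with 61.6 and 73.7 CPM per kb, and total RNA replicate 3 stood at 925 CPM beside 502 and 582 in the other total RNA libraries. Zfp207 (23.3 on polyribosomes and 41.1 CPM per kb in total RNA), Zfp523 (33.0 and 28.3) and Zfp91 (24.4 and 31.7) followed by the mean over the 6 libraries. Their order differed between the groups, with Zfp523 the highest of these 3 on polyribosomes and Zfp207 in total RNA. None of the 5 except Zfp207 was called against 0.

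Other mRNAs moved between the groups in ways that accompany these values. All 14 listed mRNAs with detained introns or nuclear retention, such as Clk4 and Nktr, were below 0, with a median log2 fold change of -0.97. Of them 9 were called lower (64.3%, against 2.36% of all genes). Their summed level was 489 to 537 CPM on polyribosomes and 916 to 1048 CPM in total RNA. Of 13 tested partners of KRAB proteins 1 was called lower, Fam208a of the HUSH silencing complex (-1.06), and Trim28 itself lay at 0.34 (adjusted p = 0.171, edgeR). With the replicate block 5 of the 13 were lower (38.5%, against 13.2% of all genes) and 0 higher, and these were Fam208a, Mphosph8 and Pphln1, all of the HUSH complex, Smarcad1 and Atf7ip. The 9 neuronal markers had a median of -0.01, with summed levels of 11316 to 13379 CPM on polyribosomes and 10559 to 12324 CPM in total RNA. All 8 astrocyte markers lay above 0 (median 0.48), with summed levels of 40832 to 43103 CPM on polyribosomes and 32249 to 36811 CPM in total RNA, as did all 7 oligodendrocyte (median 0.43), all 4 oligodendrocyte precursor (median 0.74), all 7 microglia (median 0.36) and 4 of 5 endothelial markers (median 0.24). In the fit by group only, no marker was called except the oligodendrocyte gene Cldn11, which was higher. With the block, 5 of 8 astrocyte, 4 of 7 oligodendrocyte and 3 of 4 oligodendrocyte precursor markers were higher, against 11.8% of all genes. So were 3 of 7 microglia and 1 of 5 endothelial markers, and of the 9 neuronal markers 2 were higher and 2 lower. No marker was at 0 in any library. The part of nuclear carry-over and of glial RNA in the values of the Zfp members was not tested.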

How the data were processed

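RNA was measured in 6 libraries, 3 of NMDA-stimulated polyribosomes and 3 of unstimulated total synaptoneurosomal RNA, grouped by their GEO labels. Before deposit the authors depleted ribosomal RNA, aligned reads with STAR (2.5.2b in the submitters' processing notes) to GRCm38 (mm10) and counted reads per protein-coding Gencode gene, and the deposited counts are whole numbers with no normalization. The treatment of multimapped reads is not given in the sources used here. The authors also deposited DESeq2 columns: a mean signal of normalized counts, log2 fold changes with errors, a test score and p-values. These hold the study's own comparison and were not used. All count columns were mapped to samples (0 were not).

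The counts were tested with edgeR 4.0.16 in R 4.3.3 (TMM, filterByExpr, quasi-likelihood, group as the term) over 12255 genes, with a threshold of 0.01 on the adjusted p. CPM are counts scaled by the TMM library size. Departure was tested in the same fit with the median log2 fold change of the members as a fixed offset. On data simulated for this comparison (12125 genes), 95.5% of 200 changed genes were recovered with 0 false calls among 11925. The departure test gave 1 false call there. Each change drawn was larger than the log2 fold change of any member (-1.497 to 1.0), and no preparation effect was drawn. The median of the members was -0.05 in the simulated data and -0.46 in the real data. False calls of the departure test at the real median were therefore not tested. Recovery of differences as small as those of the members, or as their median, was not tested either. Alternatives were DESeq2 1.42.0, other scalings, no filter, the replicate block, offsets for transcript GC and length (splines with 5 degrees of freedom, available for 99.9% of genes tested) and leaving out each library. Finger, KRAB, overlap and cluster features came from Gencode vM21 and GRCm38, a later annotation than the authors used.

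Same-numbered libraries deviated together from their group means (r = 0.37, 0.26 and 0.38, others -0.35 to 0.11), and the table's column prefixes give the same pairs. No libraries were alike within counting noise (chi-square per degree of freedom 3.58 to 20.9 between replicates). The labels do not say that the replicates came from separate animals, so p-values measure the spread between these samples, which may be technical. Total RNA replicate 3 was the shallowest library, with a median of 12 counts per member against 27.5 to 56.5 in the others, so low members are least precise there.

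The members and gene lists were chosen with earlier results of these data known. Values are given for the 12 called members with the largest change in 1 direction in all preparations, the 5 farthest to either side of the family median with a mean of at least 30 counts, the 5 highest per length, members with known roles and those at the limit of 60 counts. Other members were named after their values were seen, as parts of a count or a cluster.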

Additional observations from a re-analysis of the deposited data

How the results depend on the processing

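The direction of the family was kept in all fits, with a median log2 fold change between -0.54 and -0.42 when 1 library was left out, -0.37 for the 150 members with at least 200 counts, -0.47 without members that overlap another gene and -0.26 with the GC and length offset, with or without the replicate block. Preparations pair the samples, and with the replicate block 86 members were called against 0 (17 without it) and 50 departed from the family median (19 without it). With the block and the offset 28 were called. With the offset alone 2 were called, both lower (0.727%, against 0.881% of all genes), and 2 departed, both above (0.727%, against 8.49%). Without an expression filter 37 were called, 36 of them lower (13%, against 3.38%). Leaving out 1 library gave 0 to 9 calls and 0 to 20 departures. At the count of 0 calls (without total RNA replicate 2) 110 members had an unadjusted p under 0.05 in edgeR, and at the count of 0 departures (without total RNA replicate 1) 47 had. The share of all genes at this cut in these fits is not given here, so the 110 and 47 stand without a background. DESeq2 gave 18 calls and 13 departures among the 213 members with an adjusted p for departure. Of these departures 3 lay below (1.41%, against 0.725% of all genes) and 10 above (4.69%, against 26.9%). The mean of the members as centre gave 14 departures, 5 below and 9 above, and the share of all genes there is not given here. RLE, upper quartile and library total scaling gave 15, 16 and 24 calls, all lower. These were 5.45%, 5.82% and 8.73% of the members, against 2.22%, 2.36% and 2.99% of all genes. The median of KRAB members minus that of the others, added after seeing the data, was -0.45, -0.14 with the block and offset, -0.12 with the offset, and -0.50 to -0.34 without 1 library. Without members that share over 20% of their stretches with other genes, also added then, 17 calls and a median of -0.46 were found.

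The offset moved Zfp771 from 0.85 (0.79 with the block) to -0.0029, and to -0.0095 with the block. Other signs turned in members closer to 0. With the block and offset, and then with the offset alone, the log2 fold change was 0.11 and 0.075 for Zfp106, -0.12 and -0.14 for Zfp523, and -0.23 and -0.24 for Zfp598, and the departure of Zfp445 was 0.022 and 0.024. That of Zfp354a was -0.011 with the block and offset. By library totals alone Zfp36l1 was at -0.0696 and Zfp598 at -0.043. Without 1 library the log2 fold change ran from -0.43 to 0.046 for Zfp106, from -0.053 to 0.18 for Zfp36l1, from -0.018 to 0.78 for Zfp36l2 and from -0.24 to 0.33 for Zfp598, and the departure from -0.024 to 0.22 for Zfp91 and from -0.13 to 0.39 for Zfp354a. The causes were not tested. Depth limits members under 200 counts (126 of 276).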
